A study of Mus musculus with 4 samples.

Results

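The S100 genes encode small calcium-binding proteins, and 10 of them were followed here by name out of 49585 genes counted: S100a1, S100a4, S100a6, S100a8, S100a9, S100a10, S100a11, S100a13, S100a16 and S100b. The cells were proliferating C2C12, a line of mouse myoblasts from the C3H strain, which divide in serum-rich medium and fuse into myotubes when serum is withdrawn. For 2 libraries they had been transduced with the empty retrovirus pLXSN, and for 2 with a retrovirus that overexpresses C/EBPβ, the leucine-zipper transcription factor encoded by Cebpb. Both groups passed through 7 days of selection in 1200 μg/ml G418 and then grew for 48 h as pools of stable cells, in medium whose stated serum content for the line is 10%. The libraries held between 37566321 and 92027838 counts assigned to genes, the deepest being C/EBPβ replicate 2. Levels are given as CPM, a gene's count relative to the total of its library's tested genes, after TMM scaling between libraries.

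S100 proteins fold around a pair of EF-hand loops that bind calcium, and most work as dimers that dock onto other proteins when calcium rises. Inside cells they bind annexins at membranes, non-muscle myosin and channel proteins. Some, above all the S100A8 and S100A9 pair of neutrophils, are released and act on receptors such as RAGE and TLR4. In muscle, S100A1 is known as a partner of the calcium release channel and the calcium pump, and S100A4, S100A6, S100A10 and S100A11 are common in dividing mesenchymal cells.

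Of the 10 members 9 lie on chromosome 3 and S100b lies on chromosome 10. In the GRCm38 gene models behind the counts, a run of S100 genes from S100a1 to S100a9 spans chr3:90511034-90695721, a stretch of 185 kb that holds 12 S100 genes, 7 of them members. S100a11 and S100a10 stand apart, 2825 kb beyond S100a9, with 28.8 kb between them. S100a1 and S100a13 point away from each other with 42 bases between their first exons, so that their upstream regions overlap. Each member is annotated as protein-coding, with 3 to 6 separate exon blocks and between 511 exonic bases (S100a11) and 1617 (S100a16).

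The regions just upstream of the start are shown for 3 members, S100a8 and S100a9 because 1 was detected and the other was not although their proteins pair, and S100a4 as an abundant member for comparison. RefSeq (GRCm38.p6) held such a region of 300 bases, 250 before and 50 after the annotated start, for 9 of the 10 members, and S100a10 had no entry. Capitals mark TATAAA, read on the gene's strand, and TTGCNNAA, a core of C/EBP sites in which N is any base, read on both strands. These motifs, and the AP-1 motif TGANTCA on both strands, were chosen after values of the members were known.
S100a8: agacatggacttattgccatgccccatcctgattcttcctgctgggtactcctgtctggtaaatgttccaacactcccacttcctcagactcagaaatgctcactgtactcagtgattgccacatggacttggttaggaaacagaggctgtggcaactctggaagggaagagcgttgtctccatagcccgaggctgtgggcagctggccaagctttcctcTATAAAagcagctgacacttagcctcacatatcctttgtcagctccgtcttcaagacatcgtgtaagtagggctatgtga
S100a9: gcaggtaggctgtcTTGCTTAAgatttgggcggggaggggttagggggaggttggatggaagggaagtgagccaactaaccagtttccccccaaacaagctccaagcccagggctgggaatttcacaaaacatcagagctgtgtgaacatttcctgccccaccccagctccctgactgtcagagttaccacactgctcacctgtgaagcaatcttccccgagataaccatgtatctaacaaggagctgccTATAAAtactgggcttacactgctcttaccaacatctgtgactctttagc
S100a4: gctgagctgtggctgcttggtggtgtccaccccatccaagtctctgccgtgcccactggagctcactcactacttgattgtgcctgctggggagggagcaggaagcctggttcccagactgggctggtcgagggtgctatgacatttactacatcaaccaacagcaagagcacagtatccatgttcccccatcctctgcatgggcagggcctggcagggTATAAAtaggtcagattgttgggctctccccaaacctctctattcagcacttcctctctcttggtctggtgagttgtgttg
The S100a8 region is chr3:90668821-90669120 on the plus strand, that of S100a9 is chr3:90695672-90695971 on the minus strand, and that of S100a4 is chr3:90603520-90603819 on the plus strand. TATAAA began 30 bases before the annotated start in S100a8 and 31 bases before it in S100a4, and at the annotated start itself in S100a9. These were the 3 of 9 members with TATAAA, which 8.32% of all 32851 regions of this length contained. TTGCNNAA was found in S100a9 alone among the 9, as TTGCTTAA at 236 bases before the start, and 10.8% of all regions contained it. TGANTCA was found in S100a11, at 136 and 38 bases before the start, and in a second annotated region of S100a16, against 7.81% of all regions. No printed motif overlapped another. A match describes letters in this window and not a bound site.

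The overexpressed gene stood at 85.0 and 76.8 CPM in empty vector replicates 1 and 2 and at 483 and 473 CPM with C/EBPβ. All 8 myoblast markers looked up were detected in every library, as the label has it. By the edgeR test described below, at an adjusted p under 0.05, 4 fell (Cdh15, Chrna1, Des and Myod1), 3 rose (Pax7, Myf5 and Ncam1) and 1 did not pass. Over all tested genes 10.8% fell and 14.1% rose. Without C/EBPβ replicate 1, Myod1 and Ncam1 did not pass (adjusted p = 0.152 and 0.0820). All 12 markers of differentiated muscle were lower with C/EBPβ and passed, where 10.8% of all tested genes fell. Their summed level was 226 to 237 CPM in empty vector libraries and 38.8 to 59.8 CPM with C/EBPβ. With either control library left out not all 12 passed. Myh8, at 0.0786 and 0.196 CPM with C/EBPβ, passed the low-count filter only through its control libraries, so a rise of Myh8 could not have been called. In bulk RNA, fewer cells of a kind and less RNA per cell cannot be told apart.

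C/EBPβ myoblasts contained S100a8 RNA where control myoblasts had none detected, and had less S100a10 RNA. The other abundant S100 genes differed by less and did not pass. S100a6 and S100a11 were also lower in both C/EBPβ libraries, and the 95% interval of the S100a6 fold change overlapped that of S100a10. Of the 10 members 8 had enough counts to be tested, S100a8 through its C/EBPβ libraries alone. Among these 1 rose, S100a8, and 1 fell, S100a10, at an adjusted p under 0.05 in edgeR's quasi-likelihood test with Benjamini-Hochberg adjustment over 15078 genes, the source of all adjusted p-values below unless another is named. Over all genes tested 24.9% were called, 14.1% higher and 10.8% lower, so 2 called of 8 tested is near the background share. The median log2 fold change was 0.01 over the 8 tested members and 0.00 over all genes. The 4 libraries did not overlap between groups in 4 of the 8 members, 1 higher and 3 lower with C/EBPβ, against 33.3% of all tested genes higher, 32.9% lower and 66.2% in either direction.

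**Figure D1:**
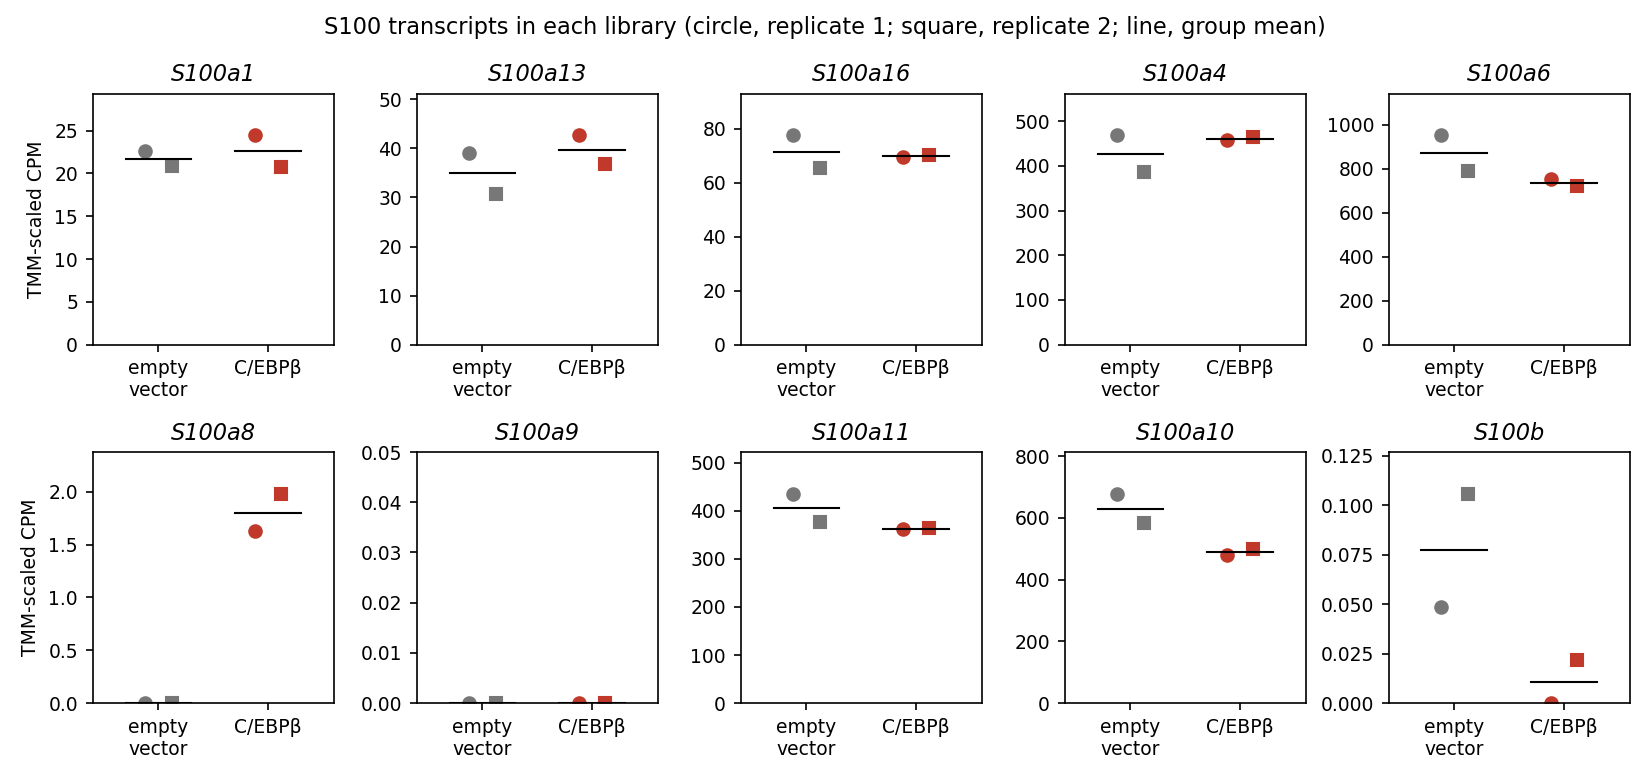
TMM-scaled CPM (vertical axes, linear, each from 0) of the 10 S100 members in the 2 empty vector and 2 C/EBPβ libraries, with lines at the group means. S100a8 is at 0 in both empty vector libraries and at 1.63 and 1.98 CPM with C/EBPβ, and S100a10 is lower in both C/EBPβ libraries than in either control.

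The calgranulins S100a8 and S100a9 are neighbours on opposite strands, 22.6 kb apart, and their proteins form the heterodimer calprotectin of neutrophils and monocytes. S100a8 had 0 counts in both empty vector libraries, 62 in C/EBPβ replicate 1 and 182 in replicate 2. That is 1.63 and 1.98 CPM with C/EBPβ (mean 1.80 ± 0.25, SD, n = 2). The replicates were close to each other and both lay above the controls.
A count of 0 over both empty vector libraries allows up to 0.0382 CPM, taking 3 counts as the limit, so S100a8 was at least 48.8-fold higher with C/EBPβ (adjusted p = 1.42e-04). S100a8 passed the low-count filter only through the C/EBPβ libraries. A fall could thus not have been called, and the adjusted p adds no separate support. The bound covers counting error only, and with only 1 control library it was at least 23.4-fold (replicate 1 left out) or at least 25.5-fold (replicate 2 left out). S100a9, in contrast, had 0 counts in all 4 libraries, which allows up to 0.0143 CPM over the 4 together. Set against 3 counts for S100a9 over the 2 C/EBPβ libraries, S100a8 RNA was at least 61.2-fold more abundant than S100a9 RNA per kb of gene model in those cells.

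Markers of the cells that usually make S100a8 moved in part with it. Of 15 neutrophil and macrophage markers 4 could be tested and 3 of these rose, where 14.1% of all tested genes rose. Of the 3, Camp and Lyz2 passed the low-count filter only through their C/EBPβ libraries. For such genes a fall could not have been called, so the count of 3 is a description. Camp, the cathelicidin antimicrobial peptide of neutrophil granules, stood at 0.243 and 0.0793 CPM in controls and at 9.36 and 6.20 CPM with C/EBPβ. Lyz2, the lysozyme of macrophages and granulocytes, stood at 0.146 and 0.0529 CPM in controls and at 7.50 and 4.88 CPM with C/EBPβ. For both genes the C/EBPβ libraries were far above the controls, with log2 fold changes of 5.53 (SE 0.39, adjusted p = 4.98e-05) for Camp and 5.88 (SE 0.42, adjusted p = 4.76e-05) for Lyz2. Without empty vector replicate 1 only 3 and 2 control counts remained, and the ratios were 88.8 (95% counting interval 30.3 to 432) and 105 (29.1 to 873).
Csf1r, the receptor for macrophage colony-stimulating factor, rose by 1.33 on the log2 scale (adjusted p = 0.0235). Its rise was 1.999 with empty vector replicate 1 left out, and it did not pass with replicate 2 left out (0.89, adjusted p = 0.0987). The summed level of the 15 markers was 2.56 to 3.48 CPM in controls and 15.99 to 20.9 CPM with C/EBPβ. Itgb2, the leukocyte integrin subunit CD18, had 1.82 ± 0.143 CPM in controls and 2.58 ± 0.831 CPM with C/EBPβ, where both libraries lay above the controls but the difference did not pass (log2 fold change 0.54, adjusted p = 0.172). Fcer1g, a signalling chain of Fc receptors, had 6 and 4 counts in controls and 9 and 23 with C/EBPβ and was too low to test. Ly6g, also too low to test, went the other way, with 7 and 6 counts in controls and 2 and 2 with C/EBPβ. Other leukocyte genes of the list were at or near 0: Tyrobp, Itgam, Adgre1 and Ltf had 0 counts in every library, and Ptprc, the leukocyte common antigen CD45, had 2 counts in each control, 0 in C/EBPβ replicate 1 and 1 in replicate 2. Keratinocytes also make S100a8, and of 8 keratinocyte markers 4 could be tested. Ivl, involucrin of the cornified envelope, rose from 0 counts to 0.280 ± 0.0115 CPM (at least 7.21-fold against 3 counts, adjusted p = 0.00399), and by at least 3.45-fold or 3.76-fold when control replicate 1 or 2 was left out. Ivl too passed the low-count filter only through its C/EBPβ libraries, so a fall of Ivl could not have been called. With C/EBPβ replicate 2 left out, Ivl had too few counts to be tested, so no call was made there. The basal keratin Krt14 fell from 19.7 ± 1.23 to 10.6 ± 1.28 CPM (adjusted p = 0.00128). The summed level of the 8 was 23.2 to 26.4 CPM in controls and 14.2 to 16.5 CPM with C/EBPβ, most of it from Krt14. Krt1 had 0 counts in every library. The part of these markers in the S100a8 result was not tested.

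**Figure D2:**
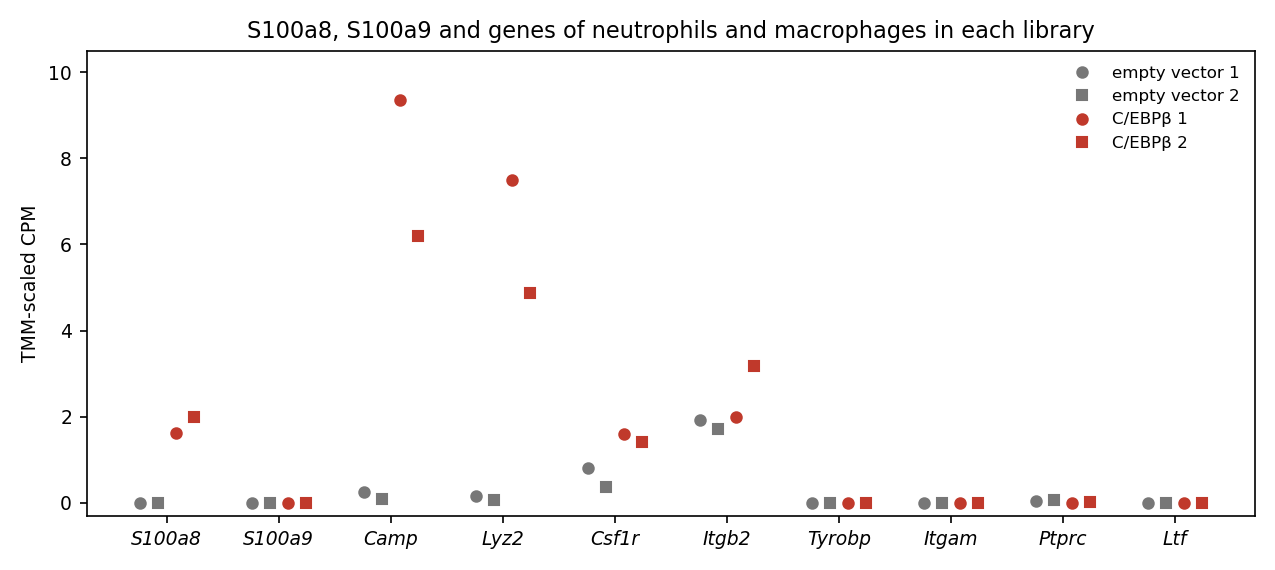
TMM-scaled CPM (linear axis) of S100a8, S100a9 and 8 neutrophil and macrophage markers in each of the 4 libraries (grey, empty vector; red, C/EBPβ; circles, replicate 1; squares, replicate 2). S100a8, Camp and Lyz2 are near 0 in both controls and between 1.63 and 9.36 CPM with C/EBPβ, while S100a9, Tyrobp, Itgam and Ltf are at 0 throughout.

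The genes whose scaled pattern over the 4 libraries was nearest to that of S100a8 were Rnase2a, Dnmt3l and Ms4a4d, by the Euclidean distance of centred log2 CPM among tested protein-coding genes (0.38, 0.42 and 0.48). Rnase2a, a ribonuclease of the eosinophil-associated family, had 0 counts in both controls and 81 and 167 with C/EBPβ. Dnmt3l, a cofactor of the de novo DNA methyltransferases, had 0 in both controls and 88 and 187 with C/EBPβ. With 4 libraries in 2 groups this measure mostly ranks genes by the size of the group difference.

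S100a10, also called p11, is the S100 member that binds annexin A2 without needing calcium, and it was the second most abundant member by CPM. It stood at 678 and 582 CPM in empty vector replicates 1 and 2 and at 481 and 500.2 CPM with C/EBPβ. Both C/EBPβ libraries lay below both controls. The log2 fold change was -0.36 (SE 0.10, 95% interval -0.60 to -0.12, adjusted p = 0.0369), a level 22.1% lower. The call did not hold when any of 3 libraries was left out, namely control replicate 1 (log2 fold change -0.25, adjusted p = 0.118), C/EBPβ replicate 1 (-0.33, adjusted p = 0.129) or C/EBPβ replicate 2 (-0.39, adjusted p = 0.0508), and it held with control replicate 2 left out (-0.47, adjusted p = 0.0206). In the authors' deposited table the gene S100a10 had a log2 fold change of -0.40 (SE 0.12, adjusted p = 0.00325), and S100a8 had 4.90 (SE 0.60). That S100a8 value is smaller than the bound given above, and than the 9.58 of edgeR and 8.60 of DESeq2 here. The reason was not tested. S100a10 and S100a8 were also the members that passed an adjusted p of 0.05 in the authors' deposited table, where 26.0% of genes with an adjusted p passed. The tested genes with the pattern nearest to S100a10 were Apex1, Spryd7 and Bok, at distances of 0.02 each. Apex1, a DNA repair endonuclease, had 149 and 126 CPM in controls and 105 and 109 CPM with C/EBPβ.

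The other abundant members differed by less. S100a6, or calcyclin, which binds the ubiquitin-pathway protein encoded by Cacybp, had 951 and 788 CPM in controls and 752 and 721 CPM with C/EBPβ. The C/EBPβ libraries lay below the controls, but the difference did not pass (log2 fold change -0.24, 95% interval -0.50 to 0.02, adjusted p = 0.170). It passed once control replicate 2 was left out (-0.37, adjusted p = 0.0486).
S100a11, a partner of annexin A1, had 435 and 377 CPM in controls and 361 and 363 CPM with C/EBPβ (log2 fold change -0.17, 95% interval -0.39 to 0.06, adjusted p = 0.263). Its groups did not overlap either. S100a4, known as fibroblast-specific protein and as a binder of non-muscle myosin IIA, had 468 and 386 CPM in controls and 457 and 465 CPM with C/EBPβ (0.11, 95% interval -0.14 to 0.36, adjusted p = 0.514). The C/EBPβ libraries of S100a4 fell between the controls.

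The 3 less abundant members near the start of the cluster overlapped between groups. S100a16, a widely expressed member, ranged from 65.5 to 77.5 CPM in controls and from 69.5 to 70.4 CPM with C/EBPβ (log2 fold change -0.03, 95% interval -0.26 to 0.19, adjusted p = 0.847). S100a13, which takes part in the release of FGF1 and interleukin 1 alpha, ranged from 30.7 to 39.1 CPM in controls and from 36.8 to 42.6 CPM with C/EBPβ (0.18, 95% interval -0.12 to 0.48, adjusted p = 0.356). S100a1, the member of heart and skeletal muscle, ranged from 20.9 to 22.6 CPM in controls and from 20.7 to 24.5 CPM with C/EBPβ (0.05, 95% interval -0.22 to 0.32, adjusted p = 0.800). The levels of S100a1 thus overlapped in libraries where all 12 differentiated muscle markers were lower. Changes beyond these intervals were not detected, and smaller ones cannot be seen with 2 libraries a group. Without empty vector replicate 2 the signs of S100a1 (-0.01) and S100a4 (-0.03) turned, as did those of S100a1 without C/EBPβ replicate 1 (-0.07) and of S100a16 without empty vector replicate 1 (0.09).

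**Figure D3:**
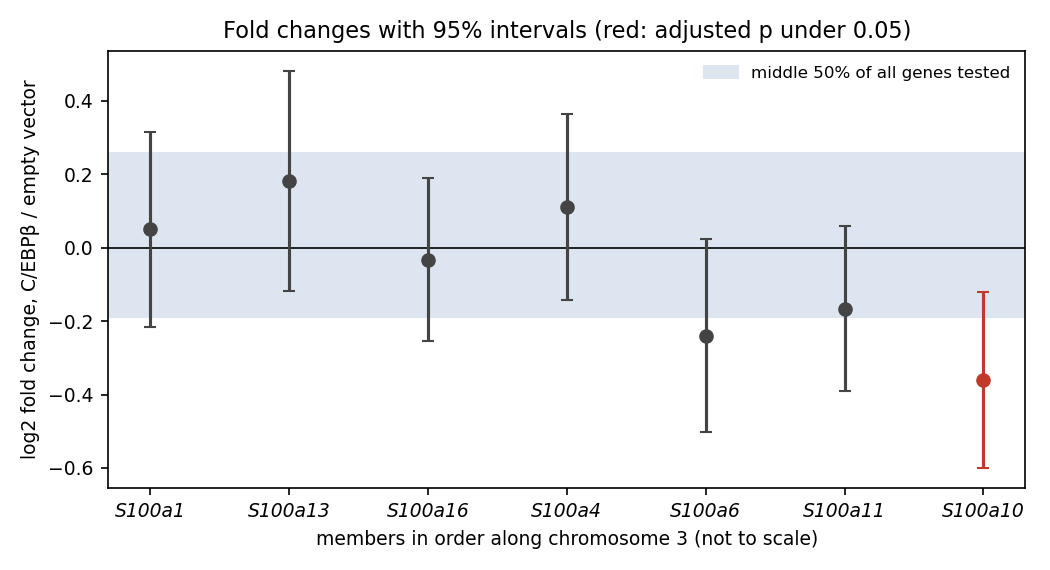
Log2 fold change (C/EBPβ over empty vector) with 95% intervals from the edgeR fit for 7 tested members in their order along chromosome 3, over the middle 50% of all tested genes (shaded, -0.19 to 0.26). S100a10 alone lies wholly below 0, and S100a8 is not drawn because its fold is a lower bound.

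S100b, a calcium sensor of glia, Schwann cells and cartilage, was too low to test. It had 2 and 4 counts in the controls and 0 and 2 with C/EBPβ, a ratio of 0.200 with a 95% counting interval of 0.0198 to 1.12, which takes in no difference. Among 10 Schwann and glial markers Sox10, Foxd3, Cdh19 and Aqp4 had 0 counts in every library, while Ngfr, a neurotrophin receptor, fell (log2 fold change -4.46, and -5.96 without C/EBPβ replicate 2), as did Erbb3, a neuregulin receptor (-3.05, and -3.85 without it). Mbp, a myelin protein, rose by 0.96 (adjusted p = 0.0132), which did not pass with replicate 2 of either group left out (adjusted p = 0.0670 for the control, 0.0587 for C/EBPβ). The summed level of these 10 was 29.9 to 36.7 CPM in controls and 5.58 to 8.25 CPM with C/EBPβ. Of 9 cartilage markers 5 could be tested, and 1 fell, 1 rose and 3 did not pass, while Col9a1 and Cnmd had 0 counts in every library. Sox9 fell by 1.04, from 102 and 104 CPM in controls to 44.8 and 55.5 CPM with C/EBPβ. Sox9 made up most of the summed level of the 9, 105 to 108 CPM in controls and 50.8 to 60.4 CPM with C/EBPβ. Col11a2 rose by 1.13, but by 0.74 and without passing when control replicate 1 was left out. The part of these markers in the S100b counts was not tested.

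Within a library the proportions of the abundant members differed between groups, and scaling between libraries does not enter such ratios. S100a4 counts are a minimum, since part of its exonic bases is shared with another gene model. Ratios and shares are therefore compared between groups only, and not read as relative levels of the genes. The count of S100a6 was 2.03 and 2.04 times that of S100a4 in the controls, and 1.65 and 1.55 times with C/EBPβ. The ratio of S100a10 to S100a4 was 1.45 and 1.51 in the controls, and 1.05 and 1.08 with C/EBPβ. For S100a11 over S100a4 it was 0.930 and 0.979 in the controls, and 0.791 and 0.781 with C/EBPβ. In each of these 3 ratios both C/EBPβ libraries lay below both controls, while the replicates of a group lay close together, as they did for S100a10 over S100a11 (1.56 and 1.54 against 1.33 and 1.38). The first 3 ratios share S100a4 as denominator, and S100a10 over S100a11 is the quotient of 2 of them, so they are not separate observations. With 2 libraries a group a two-sided exact permutation test cannot give a p below 0.333, so these are descriptions. As a share of all member counts, S100a4 made up 17.5% and 17.1% in the controls and 20.9% and 21.3% with C/EBPβ, and S100a10 made up 25.4% and 25.9% in the controls and 22.0% and 23.0% with C/EBPβ.

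**Figure D4:**
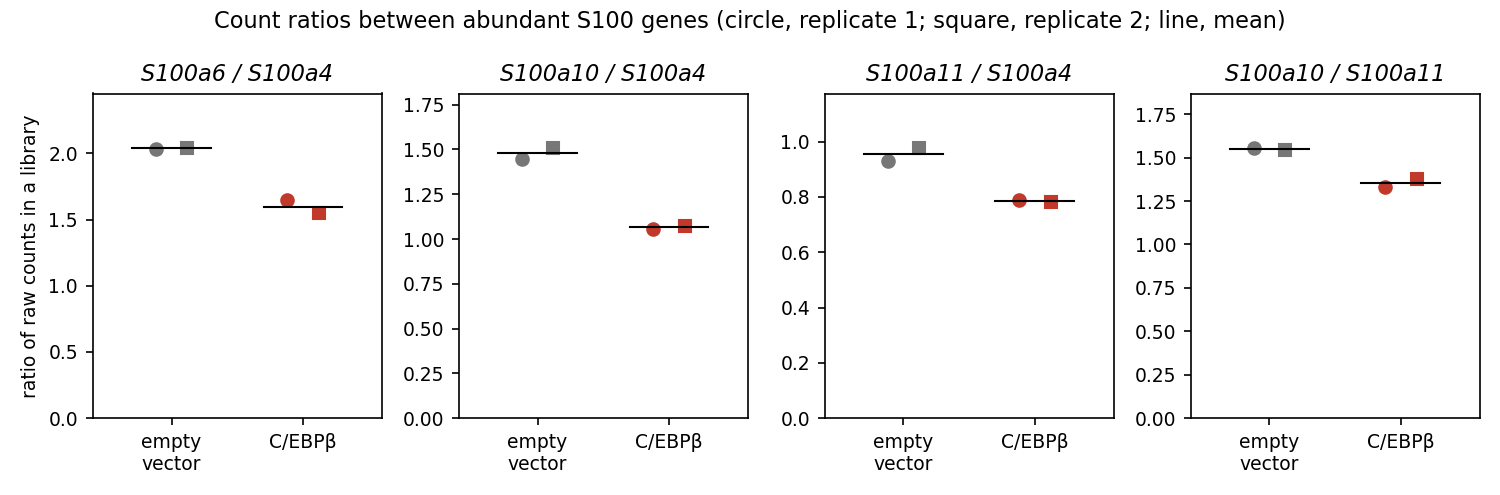
Ratios of raw counts between abundant S100 genes within each library (vertical axes from 0), with lines at group means. The replicates nearly coincide, and each of the 4 ratios is lower in both C/EBPβ libraries, for example 1.05 and 1.08 against 1.45 and 1.51 for S100a10 over S100a4. The ratios share genes and are not separate observations.

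The members stood higher in 1 control library. Together they took 0.269% of all counts in empty vector replicate 1, 0.227% in replicate 2, and 0.216% and 0.218% with C/EBPβ. All 7 members detected in the controls of the tested set were higher in empty vector replicate 1 than in replicate 2, by 8.54% (S100a1) to 27.3% (S100a13), and 51.8% of all tested genes were. Between the C/EBPβ libraries the same 7 differed by 18.1% at most.

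Compared per kb of gene model, the members formed 3 tiers in control myoblasts. S100a11 (795 ± 80.0 CPM per kb, SD, n = 2), S100a4 (731 ± 99.97) and S100a6 (636 ± 84.1) came first, and neighbours in this order overlapped between replicates. S100a10 followed at 520.0 ± 55.7 CPM per kb, below the range of S100a6. A lower tier held S100a13 (48.8 ± 8.29) and S100a16 (44.2 ± 5.25), which overlapped, and S100a1 (31.3 ± 1.81), which stood below both. S100b was at 0.0520 ± 0.0272 CPM per kb, and S100a8 and S100a9 were not detected. With C/EBPβ, S100a4 as counted (789 ± 10.2) stood above S100a11 (709 ± 2.89), and the replicates of these 2 did not overlap. In each control library S100a11 stood above S100a4 as counted (852 against 802 CPM per kb in replicate 1, 739 against 660 in replicate 2). S100a8 at 2.60 ± 0.362 CPM per kb lay between S100a1 (32.5 ± 3.82) and S100b. The S100a4 level is a minimum, since 302 of its 584 exonic bases are shared on the same strand with the gene model Gm42674 and fragments assigned to both were not counted. S100a11 has a processed copy, S100a11-ps, with 14 to 53 counts a library, and fragments that map to both were left out. The order of S100a4 and S100a11 is thus that of counted fragments alone.

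Outside the 10 members the S100 family was low. Of 8 further genes S100a3, S100a14 and S100a7a could be tested, and none passed in edgeR, nor at an unadjusted p under 0.05 (0 of 3), nor in DESeq2 (0 of 3). With no low-count filter 6 were tested and 1 passed, S100g, a calbindin of intestine, with 2 and 0 counts in controls and 6 and 20 with C/EBPβ (log2 fold change 2.85, adjusted p = 0.0151). The 20 counts came from the deepest library, and the levels were 0.0486 and 0 CPM in controls and 0.157 and 0.218 CPM with C/EBPβ. S100g was too low for the filter of the main fit. S100a3, a cysteine-rich member of hair, had 3.33 ± 0.376 CPM in controls and 3.78 ± 0.194 CPM with C/EBPβ (log2 fold change 0.19, adjusted p = 0.488). S100a14 had 0.877 ± 0.106 and 0.726 ± 0.0111 CPM (-0.27, adjusted p = 0.505), and S100a7a had 0.263 ± 0.110 and 0.246 ± 0.0518 CPM (-0.04, adjusted p = 0.955). The sign of S100a7a turned when replicate 1 of the controls (0.46) or of C/EBPβ (0.09) was left out. The S100-fused proteins of the epidermis were likewise low: 6 of 7 genes, filaggrin (Flg) among them, had 0 counts in all libraries.
Of the genes beside the members 2 fell and none rose with all 4 libraries, in edgeR with or without adjustment and in DESeq2. Over all tested genes 10.8% fell and 14.1% rose. All of these neighbours had S100a1 or S100b as the nearest member. None lay within 100 kb of S100a8 or S100a10, the called members, so their surroundings are not described by this list. Of 8 tested protein-coding genes within 100 kb of a member, Npr1, a natriuretic peptide receptor 45.2 kb from S100a1, fell from 3.81 ± 0.744 to 1.88 ± 0.208 CPM (-1.002, adjusted p = 0.00992), and Prmt2, an arginine methyltransferase 15988 bases from S100b, fell by 0.51 (adjusted p = 0.00225). The others, Chtop, Snapin, Ilf2, Ints3, Dip2a and Pcnt, did not pass and had log2 fold changes between -0.16 and 0.13. The nearest of them to S100a1, Chtop, had -0.06 (adjusted p = 0.631). These calls changed with the control libraries. With replicate 2 left out Npr1 did not pass (adjusted p = 0.0615) and Pcnt, a centrosome protein, rose by 0.33 (adjusted p = 0.0331). With replicate 1 left out Dip2a, whose gene overlaps S100b, fell by 0.29 (adjusted p = 0.0360).

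Membrane partners of S100 proteins were lower with C/EBPβ where they passed. Of 11 annexin and AHNAK genes, all tested, 6 fell, 5 did not pass and none rose (0 also at an unadjusted p under 0.05 and in DESeq2), where 10.8% of all tested genes fell and 14.1% rose. Their median log2 fold change was -0.33, against 0.00 over all genes. Anxa1, the partner of S100a11 and an anti-inflammatory phospholipid binder, stood at 1204 and 1189 CPM in controls and at 787 and 917 CPM with C/EBPβ (-0.49, SE 0.11, adjusted p = 0.0132). Anxa7 had 289 and 294 CPM in controls and 203 and 224 CPM with C/EBPβ (-0.45, adjusted p = 0.00720), and Anxa11 and Anxa4 fell by 0.40 and 0.33 (adjusted p = 0.0318 and 0.0392). In each of these the C/EBPβ libraries lay below the controls. Anxa11 did not pass with control replicate 2 left out (adjusted p = 0.103), nor Anxa4 with control replicate 1 or 2 left out (0.102 and 0.0614). Anxa2, which holds S100a10 in a tetramer, had 2074 and 1934 CPM in controls and 1766 and 1828 CPM with C/EBPβ and did not pass (-0.16, adjusted p = 0.330). The count ratio of S100a10 to Anxa2 was 0.327 and 0.301 in controls and 0.273 and 0.274 with C/EBPβ, while that of S100a11 to Anxa1 was 0.362 and 0.317 in controls and 0.459 and 0.396 with C/EBPβ. The number of falls was 3 with either control library left out. It was 0 in edgeR with C/EBPβ replicate 1 left out, where 3 had an unadjusted p under 0.05, and it was 7 in DESeq2 and in limma-voom with all 4 libraries.

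**Figure D5:**
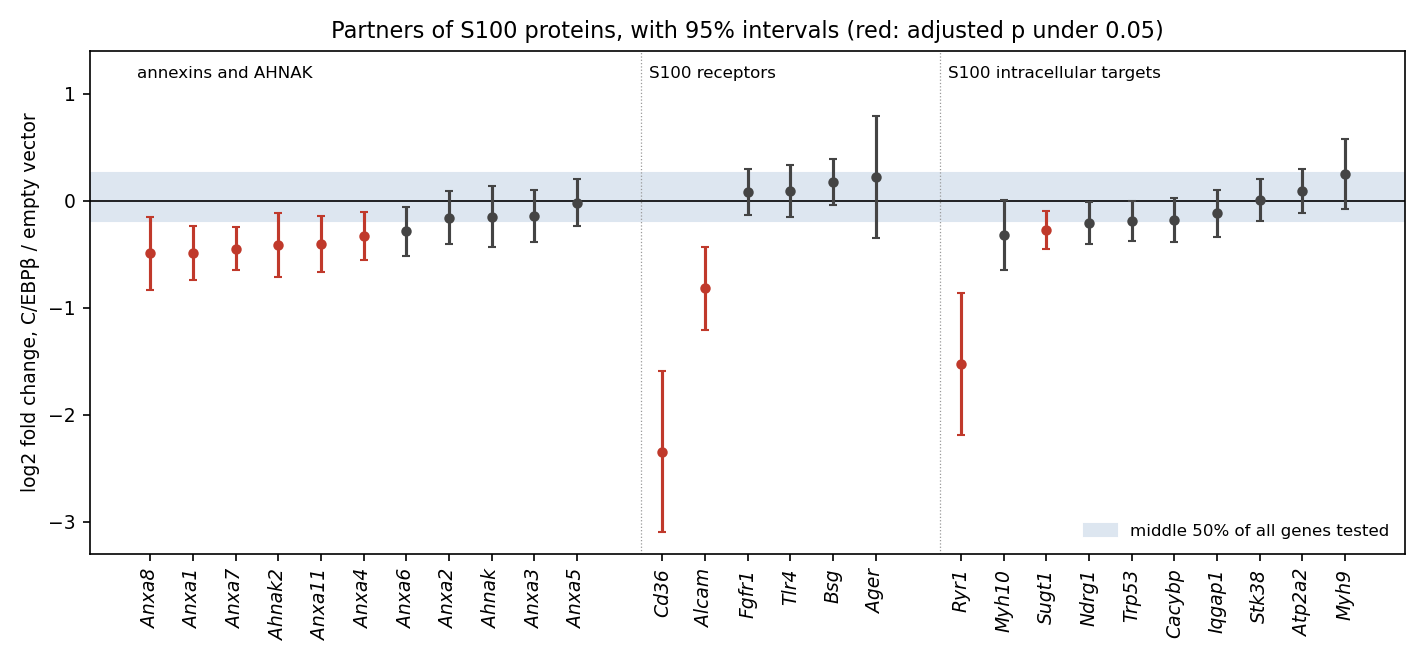
Log2 fold change (C/EBPβ over empty vector) with 95% intervals for tested annexin and AHNAK genes, receptors and intracellular targets of S100 proteins, over the middle 50% of all tested genes (shaded). Red points passed an adjusted p of 0.05, and all of them lie below 0.

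Receptors for released S100 proteins were detected, and none rose in edgeR, at an unadjusted p under 0.05 or in DESeq2 (0 of 6 each). Over all tested genes 14.1% rose and 10.8% fell, so 0 rises among 6 genes say little. Tlr4, the receptor best known for S100A8 signals, had 55.1 ± 5.42 CPM in controls and 58.5 ± 5.92 CPM with C/EBPβ (log2 fold change 0.09, adjusted p = 0.596). Ager, which encodes RAGE, had 1.17 ± 0.0330 and 1.38 ± 0.266 CPM (0.22, adjusted p = 0.571). Of 6 receptors 2 fell. The adhesion molecule Alcam stood at 109 and 118 CPM in controls and at 50.8 and 77.5 CPM with C/EBPβ (-0.82, adjusted p = 0.00903). With control replicate 2 left out Alcam had -0.77 and did not pass. The scavenger receptor Cd36 stood at 1.05 and 0.899 CPM in controls and at 0.157 and 0.207 CPM with C/EBPβ (-2.34, adjusted p = 0.00136). Cd36 passed the low-count filter only through its control libraries. A rise of Cd36 could thus not have been called, and its adjusted p adds no separate support.
Among 14 intracellular targets 10 could be tested, 2 fell and none rose (0 also at an unadjusted p under 0.05 and in DESeq2). Set beside the 10.8% of all tested genes that fell and the 14.1% that rose, counts this small are descriptions. Ryr1, the calcium release channel of skeletal muscle that S100A1 binds, fell from 15.2 ± 5.81 to 5.16 ± 1.81 CPM (-1.53, adjusted p = 0.00601). Sugt1, a co-chaperone that binds S100A6, fell by 0.27 (adjusted p = 0.0352), which did not pass with control replicate 1 (adjusted p = 0.0575), C/EBPβ replicate 1 (0.301) or C/EBPβ replicate 2 (0.167) left out, or with no low-count filter (0.0554). Myh9, the heavy chain of non-muscle myosin IIA, had a log2 fold change of 0.25 and Cacybp had -0.18, and neither passed (adjusted p = 0.248 and 0.182). Fgf1 and Il1a, the cargo of S100a13, were too low to test.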

How the data were processed

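Messenger RNA was measured in 4 strand-specific libraries, and groups and replicate numbers come from the sample titles. The labels do not say whether replicates came from separate transductions or cultures, so each p-value reflects variation among these 4 libraries alone, part of it possibly technical. The authors deposited raw counts, fragments assigned to each gene, obtained with featureCounts 1.5.1 in reverse-stranded paired mode on GENCODE M12, per the file headers. The submitters' processing notes name HISAT2 2.0.4, featureCounts 1.4.6, DESeq2 and GRCm38. In the authors' deposited table, base mean signal, log2 fold change with standard error, statistic (score) and p-value have DESeq2 column names, per the file headers, and which libraries entered it is not stated there.

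Symbols came from that table for 9 members and from the reference for S100a9. Counts were filtered with filterByExpr (minimum count 10, total 15), scaled with TMM and tested with edgeR 4.0.16 in R 4.3.3. Intervals of fold changes use the fit's standard error. CPM used the filtered library sizes times the TMM factors, and 1 count equals 0.0109 to 0.0264 CPM. Lower bounds and counting ratios used library totals. A bound takes 3 counts in place of 0. Gene model lengths are those in the count files. Alternatives used limma-voom (limma 3.58.1), DESeq2 1.42.0, other scaling and filters, and each library left out. The fits were tested on simulated data. Members and lists were chosen with earlier results of these data known. Genes named are the members, tested S100 relatives, protein-coding genes within 100 kb, the 3 nearest patterns, and up to 4 called genes per list and direction, with others of a list named as background to a member chosen after their values were seen. A called gene of the EF-hand list is not reported here.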

Additional observations from a re-analysis of the deposited data

How the results depend on the processing

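Of 87 refits of single S100 members under other settings, 79 kept direction and call. The exceptions came from leaving out 1 library: S100a10 lost its call 3 times, S100a6 gained one (-0.37), and 4 signs turned, all of members that had not passed (ranges of -0.072 to 0.17 for S100a1, -0.026 to 0.25 for S100a4 and -0.15 to 0.092 for S100a16). The number of members called was 1 to 3 with a library left out, and 1 with a filter of 5 CPM in 2 libraries, which removes S100a8 from the test. Over all genes 3759 were called, and 2493 to 3462 with a library left out. The annexin and AHNAK count of 6, counted again after the data were seen, was 0 to 6 with a library left out, and the count of 11 among other EF-hand genes was 4 to 10. The cause was not tested. With the replicate number as a block 2 members were called, 1 in each direction, and 4536 genes, against 3759 without it. The labels do not say that equal numbers share a culture, and the correlation of same-numbered deviations was 0.15 over 2 pairs. Another scaling moved the median of all genes by less than 0.1 and no member's direction. With 2 libraries a group, the 95% intervals of S100a6 and S100a11 took in 0.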

Other observations

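Other calcium binders of the EF-hand type moved in both directions. Of 20 such genes outside the S100 family 17 had enough counts for the test, and among them 7 rose, 4 fell and 6 did not pass. Over all tested genes 14.1% rose and 10.8% fell. Rcn3, a reticulocalbin of the endoplasmic reticulum, stood at 51.0 and 33.5 CPM in the empty vector libraries and at 189.8 and 137 CPM with C/EBPβ (log2 fold change 1.95, SE 0.21, adjusted p = 3.59e-04 in edgeR's quasi-likelihood test). Nucb2, nucleobindin 2, rose by 0.62, Nucb1 by 0.40 and Rcn1 by 0.39, and the latter 2 missed the threshold once C/EBPβ replicate 1 was left out (adjusted p = 0.0714 and 0.0583).

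The falls were led by Efhd1, a mitochondrial calcium sensor, which stood at 46.3 and 53.5 CPM in controls and at 12.5 and 15.1 CPM with C/EBPβ (log2 fold change -1.85, SE 0.13, adjusted p = 3.96e-05). Its relative Efhd2 fell by 0.73. Calm3, which encodes calmodulin, fell by 0.28 (adjusted p = 0.0467), and Calm2 rose from 357 ± 36.2 to 455 ± 4.01 CPM (0.35, adjusted p = 0.0350). Calm2 was named after its values were seen. The call of Calm3 was lost with no low-count filter (adjusted p = 0.0509), with the stricter filter (0.0571) and without empty vector replicate 1 (0.0950), C/EBPβ replicate 1 (0.274) or C/EBPβ replicate 2 (0.179). Without C/EBPβ replicate 1 the list held 2 rises and 2 falls, and without C/EBPβ replicate 2 it held 4 and 3.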
